A study of Mus musculus with 11 samples.

Results

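Neutrophil granule genes were described in whole mouse cochleae with and without *Atf6*, as the rows of the expression tables whose symbol is 1 of 10 names: *Mpo*, *Elane*, *Prtn3*, *Ltf*, *Camp*, *Ngp*, *Lcn2*, *S100a8*, *S100a9* and *Retnlg*. All 10 were found among the 18667 genes listed, and all 10 reached the level required for testing, as 16169 genes did. The 3 early genes (*Mpo*, *Elane* and *Prtn3*) were contrasted with the 7 late genes. RNA-Seq was performed on 5 *Atf6*+/+ and 6 *Atf6*-/- libraries, labelled cochlea, wild type or knockout, with 1 library from each whole cochlea. Per the study's methods, both genotypes were female or male littermates, with no treatment named, on a C57BL/6J background, a strain whose own *Cdh23* allele leads to hearing loss with age, and were 2 months old. The knockout is carried in the germline and is not restricted to the cochlea. The labels do not say which mouse gave which library, so the p-values below measure the spread between libraries.

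Neutrophils are made in bone marrow, and they fill their granules in a fixed order. Promyelocytes transcribe the azurophil granule genes, which encode myeloperoxidase and the serine proteases, and then shut them off. Myelocytes and metamyelocytes next transcribe the specific granule genes, such as lactoferrin and cathelicidin, and the calprotectin subunits and surface receptors are transcribed strongly in the later cells. A neutrophil in blood therefore holds the azurophil proteins but little of their mRNA. Transcription factors of the C/EBP family, together with PU.1 and RUNX1, are known for driving these genes.

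To show the regulatory sequence next to genes whose levels moved together from library to library, the 250 bases before the annotated start are printed for 3 early and 3 late genes, from RefSeq (GRCm38.p6, whereas the expression values were made on GRCm39). All 10 genes matched 1 promoter each by symbol. Capitals mark the letters TTNNGNAA (a C/EBP motif) or GAGGAA (a PU.1 motif) on either strand. The windows are, on their own strands, *Mpo* at chr11:87793534-87793783 (+), *Elane* at chr10:79886062-79886311 (+), *Prtn3* at chr10:79879417-79879666 (+), *Ltf* at chr9:111019042-111019291 (+), *Ngp* at chr9:110419558-110419807 (+) and *S100a8* at chr3:90668821-90669070 (+).
Mpo: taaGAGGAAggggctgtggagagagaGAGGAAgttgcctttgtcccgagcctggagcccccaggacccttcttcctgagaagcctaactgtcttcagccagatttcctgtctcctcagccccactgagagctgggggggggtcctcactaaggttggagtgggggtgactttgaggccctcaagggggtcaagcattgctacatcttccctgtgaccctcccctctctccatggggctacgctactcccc
Elane: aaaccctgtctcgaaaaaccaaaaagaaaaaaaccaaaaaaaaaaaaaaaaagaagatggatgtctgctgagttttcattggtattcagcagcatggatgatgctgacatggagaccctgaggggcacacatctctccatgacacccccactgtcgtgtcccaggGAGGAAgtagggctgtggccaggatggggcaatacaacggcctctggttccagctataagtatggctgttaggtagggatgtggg
Prtn3: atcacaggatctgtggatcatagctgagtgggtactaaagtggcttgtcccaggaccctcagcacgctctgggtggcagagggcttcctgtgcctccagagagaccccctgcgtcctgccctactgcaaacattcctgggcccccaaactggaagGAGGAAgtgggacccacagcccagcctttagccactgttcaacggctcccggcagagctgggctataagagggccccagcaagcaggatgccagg
Ltf: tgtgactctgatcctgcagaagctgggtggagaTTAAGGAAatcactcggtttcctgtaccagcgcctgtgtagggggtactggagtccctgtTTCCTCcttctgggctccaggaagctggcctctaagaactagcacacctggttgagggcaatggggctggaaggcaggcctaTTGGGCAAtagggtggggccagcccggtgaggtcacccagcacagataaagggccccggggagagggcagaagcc
Ngp: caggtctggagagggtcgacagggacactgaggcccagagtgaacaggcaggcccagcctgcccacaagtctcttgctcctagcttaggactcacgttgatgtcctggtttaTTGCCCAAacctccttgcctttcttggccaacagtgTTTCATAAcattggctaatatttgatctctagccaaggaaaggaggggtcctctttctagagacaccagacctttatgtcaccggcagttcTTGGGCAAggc
S100a8: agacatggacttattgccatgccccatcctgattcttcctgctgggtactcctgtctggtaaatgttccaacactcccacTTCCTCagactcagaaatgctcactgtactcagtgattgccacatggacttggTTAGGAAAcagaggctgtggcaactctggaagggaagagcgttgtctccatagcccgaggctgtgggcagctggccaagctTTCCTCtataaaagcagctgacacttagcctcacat

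The PU.1 letters GAGGAA were found before all 3 early genes and before 3 of the 7 late genes, against 23.3% of 32851 promoters in the table. In *Elane* and *Prtn3* they begin 85 and 95 bases before the start, and in *Mpo* 247 and 224 bases before it. The C/EBP letters TTNNGNAA were found before none of the 3 early genes and before 6 of the 7 late genes (all but *Camp*), against 36.8% of all promoters. *Ngp* held 3 of them and *Ltf* and *S100a9* 2 each, and no base of a C/EBP match was shared with a PU.1 match in the sequences shown. The RUNX letters TGTGGT (14.0% of all promoters) were found before *S100a9*, and the TATA box letters TATAAA (12.4%) before *S100a8*. A match is only a description of these windows. In the RefSeq gene order of GRCm38.p6, *Prtn3* and *Elane* are neighbours on chromosome 10 and *S100a8* and *S100a9* on chromosome 3, with no protein-coding gene between them. *Ngp*, *Camp* and *Ltf* share chromosome 9, with 8 coding genes between *Ngp* and *Camp* and 20 between *Ngp* and *Ltf*, while *Lcn2*, *Mpo* and *Retnlg* are on chromosomes 2, 11 and 16.

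Levels are in FPKM, the number of sequenced fragments scaled to the length of the gene's exons and to the size of the library. The targeted gene was lower in the knockout libraries, at 8.25 to 10.6 FPKM in *Atf6*+/+ and 3.83 to 4.59 FPKM in *Atf6*-/-, with no overlap. Markers of the labelled tissue were present in every library, with summed levels of 3358 to 6297 FPKM for 8 genes of non-sensory cochlear cells and 35.9 to 145.7 FPKM for 6 hair cell genes. The first sum is mostly *Coch* and *Otos*. The potassium channel genes *Kcne1* and *Kcnq1* of the same list were lowest in *Atf6*+/+ replicate 4, at 0.1 and 2.69 FPKM, against 3.39 to 22.8 and 3.42 to 13.5 FPKM in the other libraries. No read counts entered the analysis, and neither the depth nor the counting error behind a value is known. The 10 members together made up 0.0533% to 0.736% of the summed FPKM of an *Atf6*+/+ library and 0.0239% to 0.276% of that of an *Atf6*-/- library. In both genotypes 1 library stood apart, *Atf6*+/+ replicate 3 with 3564 FPKM and *Atf6*-/- replicate 4 with 1342 FPKM over the members. The other libraries held 286.7 to 1419 FPKM in *Atf6*+/+ and 114.7 to 393.2 FPKM in *Atf6*-/-, so results below are also given without these libraries.

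*Mpo* encodes myeloperoxidase, the enzyme that makes hypochlorous acid from hydrogen peroxide. It was at 8.43, 13.4, 88.7, 10.9 and 8.10 FPKM in *Atf6*+/+ replicates 1 to 5, and in the 6 *Atf6*-/- libraries it ran from 1.27 FPKM through a median of 11.1 FPKM to 92.9 FPKM. The groups overlapped, and the highest value of all was in *Atf6*-/- replicate 4, slightly above *Atf6*+/+ replicate 3. *Elane* encodes neutrophil elastase, a serine protease. It was at 8.81, 11.7, 92.0, 15.2 and 5 FPKM in *Atf6*+/+ replicates 1 to 5 and at 2.21, 11 and 81.8 FPKM (lowest, median and highest) in *Atf6*-/-. Again both genotypes held 1 library far above the rest, and the medians differed by less than the spread in either group. *Prtn3*, which encodes proteinase 3, a protease closely related to elastase, was at 5.23, 11.4, 55.2, 9.68 and 4.57 FPKM in *Atf6*+/+ replicates 1 to 5. In *Atf6*-/- it was at 1.06, 5.6 and 37.6 FPKM (lowest, median and highest). For each of the 3 early genes, 3 of the 6 *Atf6*-/- libraries were below the lowest *Atf6*+/+ library, and the other 3 lay within the *Atf6*+/+ range or, for *Mpo* in 1 library, above it.

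The specific granule genes followed. *Ltf* encodes lactoferrin, an iron-binding protein that starves bacteria of iron. It was at 17.2, 21.1, 99.2, 68.4 and 11.4 FPKM in *Atf6*+/+ replicates 1 to 5, and at 6.12, 11.5 and 39.7 FPKM (lowest, median and highest) in *Atf6*-/-. The *Atf6*-/- libraries other than replicate 4 were between 6.12 and 12.8 FPKM, so they met the *Atf6*+/+ range only at its lower end. *Camp* encodes the precursor of the antimicrobial peptide cathelicidin, and was at 39.8, 37.6, 190.1, 107.3 and 29.1 FPKM in *Atf6*+/+ replicates 1 to 5. In *Atf6*-/- it was at 5.75, 20.1 and 120.9 FPKM (lowest, median and highest), and 4 of the 6 libraries were below every *Atf6*+/+ library. *Ngp* encodes neutrophilic granule protein, a relative of the cystatin and cathelicidin precursors. It was at 135.1, 112.0, 707.4, 290.4 and 52.3 FPKM in *Atf6*+/+ replicates 1 to 5 and at 18.3, 61.8 and 315.6 FPKM (lowest, median and highest) in *Atf6*-/-. *Lcn2* encodes lipocalin 2, which binds bacterial siderophores and is also made by stressed epithelia. It was at 52.3, 57.0, 332.9, 147.8 and 25.8 FPKM in *Atf6*+/+ replicates 1 to 5, against 15.6, 27.4 and 104.8 FPKM (lowest, median and highest) in *Atf6*-/-. For each of these 4 genes, 5 of the 6 *Atf6*-/- libraries lay below the *Atf6*+/+ median, and replicate 4 was the exception.

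*S100a8* and *S100a9* encode the subunits of calprotectin, a calcium-binding complex that is held in the cytosol rather than in granules. *S100a8* was at 125.5, 143.6, 873.9, 301.1 and 68.3 FPKM in *Atf6*+/+ replicates 1 to 5, and at 23.7, 59.9 and 229.3 FPKM (lowest, median and highest) in *Atf6*-/-. *S100a9* was at 146.5, 204.0, 1002, 409.2 and 73.4 FPKM in *Atf6*+/+ replicates 1 to 5, and at 25.3, 72.2 and 309.0 FPKM (lowest, median and highest) in *Atf6*-/-. These were the most abundant of the 10 genes by their mean over all libraries, and their ratio was held closely, with *S100a9* at 1.07 to 1.42 times *S100a8* in *Atf6*+/+ and at 1.07 to 1.46 times in *Atf6*-/- libraries. *Retnlg* encodes resistin-like gamma, a secreted protein of mature neutrophils. It was at 13.6, 19.8, 123.3, 59.1 and 8.78 FPKM in *Atf6*+/+ replicates 1 to 5, and at 3.10, 9.61 and 13.3 FPKM (lowest, median and highest) in *Atf6*-/-. All 6 *Atf6*-/- libraries were below the *Atf6*+/+ median of 19.8 FPKM, although 4 of them were above the lowest *Atf6*+/+ library. *Retnlg* was the only member for which *Atf6*-/- replicate 4 was not the highest knockout library, at 10.1 FPKM.

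**Figure D1:**
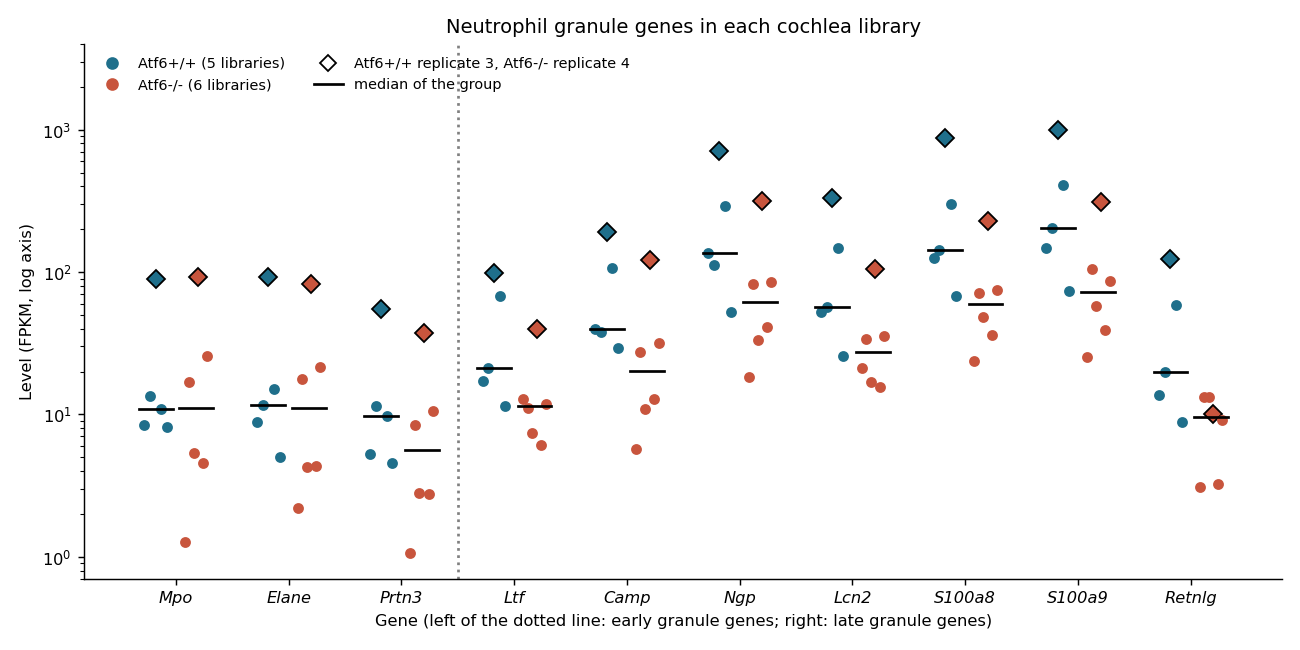
Level of each of the 10 genes in each library (FPKM, log axis), with *Atf6*+/+ libraries in blue, *Atf6*-/- libraries in red and the group median as a black line; diamonds mark *Atf6*+/+ replicate 3 and *Atf6*-/- replicate 4. The diamonds are level for *Mpo* (88.7 and 92.9 FPKM) and far apart for *Retnlg* (123.3 and 10.1 FPKM), and the groups overlap for all 10 genes.

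The comparison of genotypes was made with limma on log2(FPKM + 0.1), a scale that understates the change of low genes, by a large amount for genes near the pseudocount of 0.1 FPKM. None of the 10 members passed an adjusted p of 0.05, as 0.068% of all 16169 genes tested did (11 genes); the members' adjusted p ran from 0.415 to 0.877 (limma, Benjamini-Hochberg). At an unadjusted p of at most 0.05, 5 of the 7 late genes were lower in *Atf6*-/- and 0 of the 3 early genes, against 5.37% of all genes lower and 4.48% higher. Groups overlapped for all 10 members, and did not overlap for 1.25% of all genes tested. By the exact two-sided permutation test over 462 assignments of the libraries, whose smallest p is 0.00216, the same limit was reached by 2 members, *Retnlg* (unadjusted p = 0.0368) and *S100a8* (0.0498). The early genes gave permutation p-values of 0.348 to 0.641. In a bulk sample, fewer neutrophils and less of these mRNAs per neutrophil cannot be told apart.

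The log2 fold change (*Atf6*-/- minus *Atf6*+/+) was -0.56 ± 0.97 (standard error) for *Mpo*, -0.50 ± 0.92 for *Elane* and -0.95 ± 0.85 for *Prtn3*. *Mpo* and *Elane* were within 1 standard error of 0, and *Prtn3* was slightly past it. Among the late genes *Retnlg* had the lowest value, -1.90 ± 0.66 (limma unadjusted p = 0.0131), with group means of 44.9 ± 48.1 FPKM (SD, n = 5) and 8.70 ± 4.60 FPKM (SD, n = 6). *S100a9* was at -1.74 ± 0.70 and *S100a8* at -1.72 ± 0.65 (limma unadjusted p = 0.0279 and 0.0216). *Lcn2* (-1.47 ± 0.63) and *Ltf* (-1.35 ± 0.59) also had an unadjusted p under 0.05 (limma, 0.0390 and 0.0400). *Camp* (-1.55 ± 0.71) and *Ngp* (-1.49 ± 0.74) did not (0.0503 and 0.0658). The median was -0.56 over the early genes and -1.55 over the late genes, beside -0.013 over all genes tested.

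All 3 early log2 fold changes lay above all 7 late ones, and the 3 early genes averaged 0.93 higher than the 7 late genes on the log2 scale. The contrast was also read within single libraries, as the difference between the levels of both sets in the same library. In *Atf6*+/+ replicates 1 to 5 the mean log2 level of the early genes was below that of the late genes by a difference of -2.85, -2.30, -2.13, -3.73 and -2.36. In the *Atf6*-/- libraries the difference was -3.06 at its lowest, -1.72 at the median and -0.63 at its highest. Thus 4 of the 6 *Atf6*-/- libraries (replicates 2, 4, 5 and 6) lay above every *Atf6*+/+ library and the other 2 lay within the *Atf6*+/+ range. As a pair of single genes, *Mpo* was at 3.63% to 11.9% of the level of *S100a8* in *Atf6*+/+ and at 5.36%, 23.7%, 11%, 40.5%, 12.6% and 34.2% in *Atf6*-/- replicates 1 to 6. Ratios within a stage also varied. *Elane* was at 1.03 to 1.69 times *Prtn3*, another early gene, in *Atf6*+/+ and at 1.51 to 2.18 times in *Atf6*-/-, where again 4 of the 6 libraries (replicates 1, 2, 4 and 6) lay above every *Atf6*+/+ library. Between late genes, *Retnlg* was at 10.1% to 20.3% of *Ngp* in *Atf6*+/+ and at 3.21% to 39.9% in *Atf6*-/-, with 1 library above and 2 below the *Atf6*+/+ range. A difference of scores over chosen genes was not tested.

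**Figure D2:**
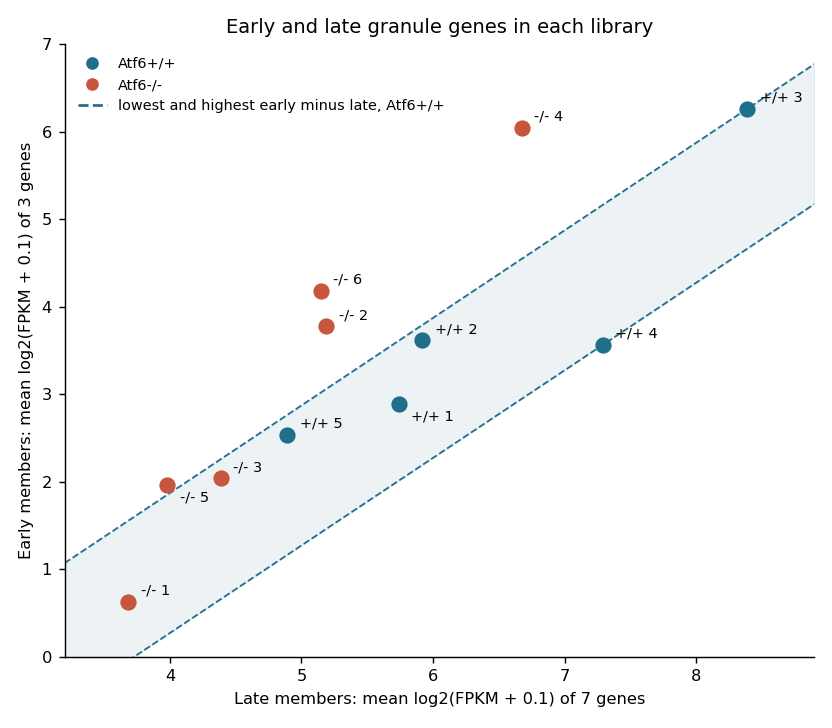
Mean log2(FPKM + 0.1) of the 3 early genes (vertical axis) against that of the 7 late genes (horizontal axis), 1 point per library, *Atf6*+/+ in blue and *Atf6*-/- in red. The band spans the early minus late differences of the *Atf6*+/+ libraries (-3.73 to -2.13), and 4 of the 6 *Atf6*-/- points lie above it.

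The libraries differed far more than the genotypes did. Over the 11 libraries the early genes spanned 41.6-fold (*Elane*) to 73.1-fold (*Mpo*) between the lowest and the highest library, and the late genes 16.2-fold (*Ltf*) to 39.8-fold (*Retnlg*). Ordered by mean log2 level, *Atf6*+/+ replicate 3 was highest and *Atf6*-/- replicate 1 lowest for both stages. *Atf6*+/+ replicate 4 had rank 6 for the early genes and rank 2 for the late genes, and *Atf6*-/- replicate 6 had rank 3 for the early genes and rank 7 for the late genes. *Atf6*-/- replicate 4 had ranks 2 and 3.

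After the genotype mean was taken off each gene, the members correlated across the 11 libraries with r of 0.976 to 0.989 between early genes, 0.709 to 0.993 between late genes and 0.659 (*Mpo* and *Retnlg*) to 0.964 between an early and a late gene. These are descriptions, since the genes share their libraries. For 4 pairs, log2 levels with no genotype mean removed were also correlated over the 11 libraries, with 100000 resamples. *S100a8* and *S100a9* had r = 0.995 and rho = 0.991 (permutation p = 2e-05 for each, the smallest the resamples can give, adjusted 8e-05), and r = 0.993 without the libraries farthest from the median. *Mpo* and *Ltf* had r = 0.638 (permutation p = 0.0402, adjusted 0.0536) and rho = 0.573 (permutation p = 0.0712, adjusted 0.142), with r = 0.695 without *Atf6*-/- replicates 1 and 4. *Ltf* and *Cd79a*, a B cell receptor subunit, had r = 0.793 (permutation p = 0.00758, adjusted 0.0152) and rho = 0.491 (permutation p = 0.130, adjusted 0.173), and r was 0.349 without *Atf6*+/+ replicates 3 and 4, so that relation rested on them. *Ltf* and *Alas2*, the first enzyme of haem synthesis in red cell precursors, had r = 0.254 and rho = 0.227 (permutation p = 0.442 and 0.501, with the same values after adjustment), and r = -0.083 without the same libraries. Within the 6 *Atf6*-/- libraries r was 0.995, 0.680, 0.432 and -0.230 for these pairs in the order given (exact permutation p = 0.00556, 0.131, 0.381 and 0.664, unadjusted).

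Among 13601 genes averaging 1 FPKM or more, those most like the mean profile of the early genes over the 11 libraries were *Ly6c2*, a surface protein of monocytes and myeloid precursors (r = 0.982), *Ctsg*, which encodes cathepsin G (0.976), *Plac8* (0.975), *Nkg7* (0.973) and *Cdca7* (0.970). Their log2 fold changes ran from -1.16 (*Plac8*) to -0.33 (*Cdca7*), and none had an unadjusted p under 0.05. For the late genes they were *Cd177*, a neutrophil surface protein of the specific granule membrane (r = 0.995), *Hp*, which encodes haptoglobin (0.991), *Ly6a2* (0.988), *Hk3*, a hexokinase of myeloid cells (0.983), and *Padi4*, the enzyme that citrullinates histones in neutrophils (0.974). *Cd177* and *Padi4* were at -1.59 and -1.34 (limma unadjusted p = 0.0229 and 0.0112, adjusted 0.455 and 0.409), and *Hp*, *Ly6a2* and *Hk3* at -1.33, -0.98 and -0.61.

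Other genes of the same stages were read from lists. Counts at the unadjusted p stand beside the 5.37% of all genes lower at it, and medians beside the -0.013 of all genes. Among 7 other azurophil granule and promyelocyte genes, 0 were lower at that p and the median was -0.35. *Ctsg* was between 0.96 and 19.8 FPKM in *Atf6*+/+ and between 0.39 and 13.9 FPKM in *Atf6*-/-, a log2 fold change of -0.41 ± 0.83, and *Fcnb* (ficolin B) and *Ms4a3* were at -0.86 ± 0.98 and -1.01 ± 0.99. *Srgn*, *Ctsc* and *Serpinb1a*, which many other cells also express, spanned only 1.53-fold, 1.79-fold and 3.67-fold over the libraries. They were at -0.097, -0.13 and -0.35, and the median of the list is the value of *Serpinb1a*. *Prss57* was at -0.31 ± 0.49. Among 10 other specific and gelatinase granule genes, 6 were lower at the unadjusted p and the median was -1.38. *Mmp8* and *Mmp9*, the neutrophil collagenase and gelatinase B, averaged 8.59 ± 9.09 and 19.9 ± 18.2 FPKM (SD, n = 5) in *Atf6*+/+ and 2.03 ± 1.13 and 5.40 ± 3.67 FPKM (SD, n = 6) in *Atf6*-/-, with all 6 knockout libraries below the *Atf6*+/+ median for both. Without *Atf6*+/+ replicate 3 the medians were -0.083 for the other azurophil and -0.91 for the other specific granule list, and without *Atf6*-/- replicate 4 they were -0.60 and -1.72. *Chil3* (-1.14 ± 0.79) and *Olfm4* (-0.40 ± 0.61) were among the 4 that were not lower at that p.

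The list of mature neutrophil genes had the most members lower at the unadjusted p, 8 of 11 against 5.37% of all genes, with a median of -1.23. That median is the value of *Stfa3*, which was listed at 0 in every *Atf6*-/- library, and it was -0.76 with a pseudocount of 1 FPKM, -1.84 with 0.01 FPKM, -1.67 after rescaling to TPM and -0.76 without *Atf6*+/+ replicate 3. *Cxcr2*, the receptor for the chemokines that call neutrophils out of marrow, was at 0.40 to 7.55 FPKM in *Atf6*+/+ and at 0.14 to 0.54 FPKM in *Atf6*-/-, a log2 fold change of -1.83 ± 0.59 (limma unadjusted p = 0.00905, adjusted 0.4). *Fpr1*, a receptor for bacterial formyl peptides, was the only gene of the neutrophil lists whose groups did not overlap, as for 1.25% of all genes tested. It was at 0.51 to 3.58 FPKM against 0.14 to 0.45 FPKM (exact permutation p = 0.00216, limma adjusted p = 0.362). *Ly6g*, the antigen by which mouse neutrophils are sorted, was at 1.2 to 11 FPKM against 0.17 to 1.75 FPKM (-1.69 ± 0.58, limma adjusted p = 0.415). *Csf3r*, the G-CSF receptor, was at -1.06 ± 0.47. *Stfa3* was at 0 to 0.78 FPKM in *Atf6*+/+. Both *Stfa3* and *Trem1* are in the count of 8, and averaged 0 and 0.0783 FPKM in *Atf6*-/-. They reached the mean of 0.1 FPKM needed for testing only through their level in *Atf6*+/+, so they add no support to that count. *Clec4d* and *Mxd1* were at -0.55 ± 0.50 and -0.27 ± 0.21. In *Atf6*-/- replicate 4, where the mean log2 level of the early genes was 6.04, against 6.26 in *Atf6*+/+ replicate 3, the mature list summed to 30.4 FPKM, against 152.2 FPKM in *Atf6*+/+ replicate 3 and 15.4 to 52.7 FPKM in the other *Atf6*+/+ libraries.

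**Figure D3:**
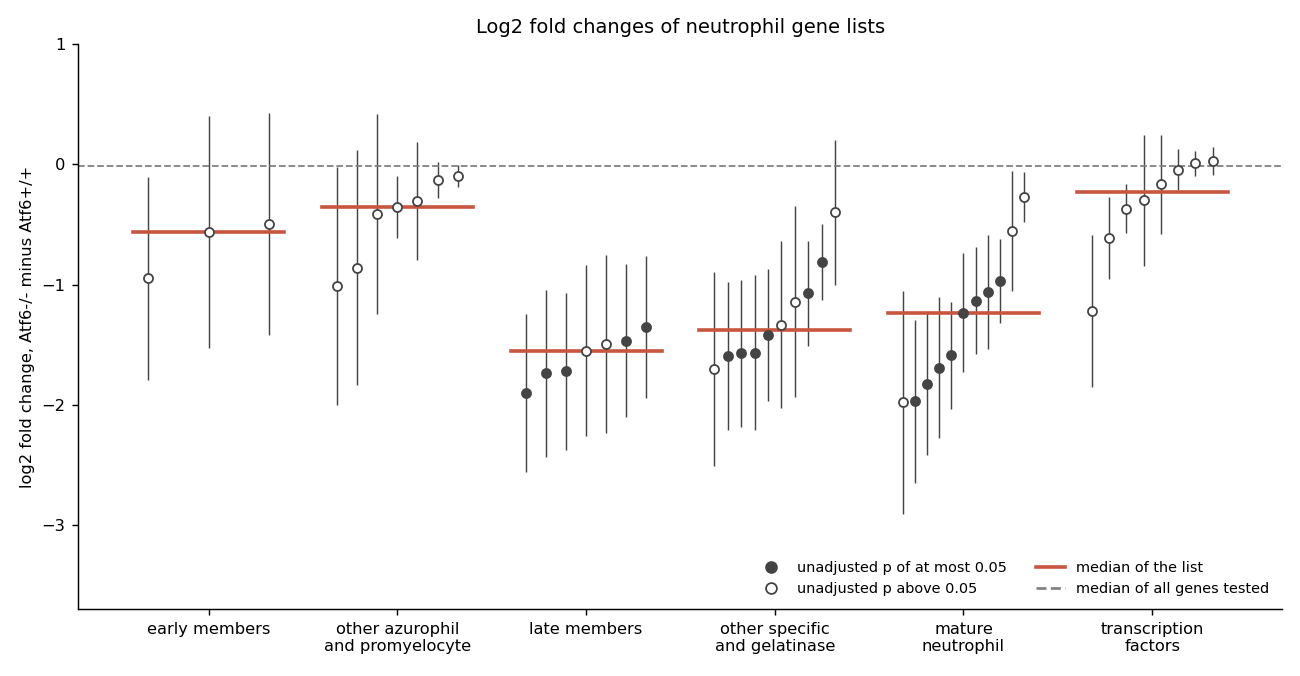
Log2 fold change (*Atf6*-/- minus *Atf6*+/+) of each gene of 6 neutrophil lists, with standard errors as bars; filled points have an unadjusted p of at most 0.05 (limma), red lines are list medians and the dashed line is the median of all genes tested. The median is -0.56 for the early genes and -0.35 for the other azurophil genes (the value of *Serpinb1a*, which many other cells also express). It lies between -1.55 and -1.23 for the late, other specific granule and mature lists.

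None of 8 granulocyte transcription factors was lower at the unadjusted p, as 5.37% of all genes were. The median of the list was -0.23 (-0.40 to -0.11 with 1 library left out). *Cebpe*, the C/EBP factor of the specific granule stage, spanned 0.77 to 6.44 FPKM in *Atf6*+/+ and 0.26 to 3.95 FPKM in *Atf6*-/- (-1.22 ± 0.63). *Spi1*, which encodes PU.1, was at 5.35 to 22.0 FPKM in *Atf6*+/+ and 3.99 to 12.7 FPKM in *Atf6*-/- (-0.61 ± 0.34, limma unadjusted p = 0.0996), with 5 of the 6 knockout libraries below the *Atf6*+/+ median. *Gfi1* (-0.17 ± 0.41), *Cebpa* (0.02 ± 0.12) and *Runx1* (0.01 ± 0.11) were close to 0. *Gfi1* is also a transcription factor of hair cells.

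Signals that call or activate neutrophils were mostly low, and 8 of 13 reached the level for testing. Of these, 3 were lower at the unadjusted p and 0 higher (5.37% and 4.48% of all genes), with a median of -0.48. The 3 were *Il1b* (1.34 ± 1.14 FPKM, SD, n = 5, and 0.418 ± 0.182 FPKM, SD, n = 6), *Selp*, the endothelial and platelet P-selectin (0.512 ± 0.323 and 0.15 ± 0.0613 FPKM), and *Cxcl12*, which retains neutrophils in marrow (56.1 ± 5.62 and 47.5 ± 7.47 FPKM). *Csf3*, *Cxcl2*, *Il6*, *Il17a* and *Sele* averaged under 0.1 FPKM and were not tested, and *Cxcl2* took just the values 0, 0.04 and 0.09 FPKM, in 2, 4 and 5 libraries. Among receptors for released granule proteins, *Tlr4* and *Ager*, which bind calprotectin, were at -0.09 ± 0.13 and -0.04 ± 0.12, and the lipocalin 2 receptors *Slc22a17* and *Lrp2* at 0.02 ± 0.06 and 0.01 ± 0.42. *Fpr2*, the receptor for the cathelicidin peptide, which neutrophils themselves express, was at -1.79 ± 0.56 (limma unadjusted p = 0.00772, adjusted 0.398).

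Markers of other blood and marrow cells were counted in the same fit, where 5.37% of all genes were lower and 4.48% higher at the unadjusted p. The part of these markers in the result was not tested beyond the values that follow. Of 11 erythroid markers, 6 were lower in *Atf6*-/- at the unadjusted p (median -1.19), none was at 0 in any library, and the list summed to 2441 to 21652 FPKM in *Atf6*+/+ and 1386 to 4612 FPKM in *Atf6*-/-. Of 9 B lineage markers 2 were lower (median -0.76, summed 31.8 to 56.7 and 30.5 to 40.3 FPKM), with *Vpreb1* at 0 in at least 1 library. Of 6 genes of dividing cells 1 was lower (median -0.70, summed 5.84 to 28.4 and 2.55 to 13.5 FPKM). Of the mast cell and basophil list 4 of 5 genes were tested and 3 were lower (median -1.08, summed 1.54 to 5.48 and 0.33 to 1.89 FPKM), and *Mcpt8* and *Cma1* were at 0 in at least 1 library. The mast cell tryptase gene *Tpsb2* did not overlap between the groups, as for 1.25% of all genes tested. It was at 0.53 to 0.78 FPKM in *Atf6*+/+ and 0.10 to 0.39 FPKM in *Atf6*-/- (limma adjusted p = 0.0882). No gene was lower at that p among 4 eosinophil (median -0.84), 8 monocyte and macrophage (-0.21), 5 megakaryocyte and platelet (-0.44), 4 haematopoietic progenitor (0.05) and 6 bone genes (-0.31), and *Gp9* was at 0 in at least 1 library. The progenitor genes spanned only 1.38-fold (*Cd34*) to 1.69-fold (*Gata2*) over the libraries, so their median may not report marrow progenitors. In the monocyte and macrophage list, *Ly6c2* and *Ccr2* were at -0.95 and -0.83 and spanned 51.9-fold and 16.3-fold. The other genes of that list spanned 1.5-fold (*Cx3cr1*) to 2.3-fold (*C1qa*). In the opposite direction, 2 of 6 hair cell genes (median 0.27) and 1 of 8 genes of other cochlear cells (median 0.29) were higher at that p, and both lists had their lowest summed level in *Atf6*+/+ replicate 3 (35.9 and 3358 FPKM). With the mean level of the erythroid and B lineage markers as a covariate, those medians were -0.089 and 0.067. With 1 library left out, the medians ran from -1.43 to -0.84 for the erythroid, -0.96 to -0.39 for the B lineage, -0.96 to -0.31 for the dividing cell, -1.23 to -0.27 for the eosinophil, -0.64 to -0.14 for the megakaryocyte, -0.28 to -0.092 for the macrophage, -0.47 to -0.14 for the bone, 0.080 to 0.56 for the hair cell, 0.13 to 0.36 for the other cochlear cell and 0.015 to 0.068 for the progenitor list. Without *Atf6*+/+ replicate 3, the B lineage, dividing cell, eosinophil, megakaryocyte and hair cell medians were -0.39, -0.31, -0.27, -0.14 and 0.080, and the other cochlear cell median was lowest without *Atf6*+/+ replicate 4 (0.13). No gene of these lists had an adjusted p under 0.05 (limma).

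Erythroid markers did not all peak in 1 library. Of the 11, 8 (such as *Ahsp* at 68.6 FPKM and *Slc4a1* at 22.4 FPKM) were highest in *Atf6*+/+ replicate 3, together with all members but *Mpo*. *Alas2*, *Hba-a1* and *Hbb-bt* were highest in *Atf6*+/+ replicate 5, and the globins dominate the sum. That library thus had the highest sum of the list (21652 FPKM) and the lowest sum of late genes among *Atf6*+/+ libraries (269.0 FPKM), and *Atf6*-/- replicate 4, with 1129 FPKM of late genes, had 2355 FPKM of erythroid markers against 4612 FPKM in *Atf6*-/- replicate 6. Eosinophil genes summed to 99.8 and 40.7 FPKM in *Atf6*+/+ replicates 3 and 4, the libraries with the most late gene transcripts, and to at most 22.4 FPKM in the others. All 6 genes of dividing cells and all 5 megakaryocyte and platelet genes were also highest in *Atf6*+/+ replicate 3. So were the sums of the B lineage list and of the mast cell and basophil list. With the same covariate, 0 members were lower at the unadjusted p, as 3.86% of all genes tested were. The early genes then had positive log2 fold changes, 1.10 for *Mpo*, 1.03 for *Elane* and 0.41 for *Prtn3* (limma unadjusted p = 0.290, 0.304 and 0.655). The median of the late genes was -0.62, so the early genes averaged 1.42 above the late ones. The lists behind the covariate had negative medians themselves (-1.19 and -0.76), so it cannot be separated from genotype.

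**Figure D4:**
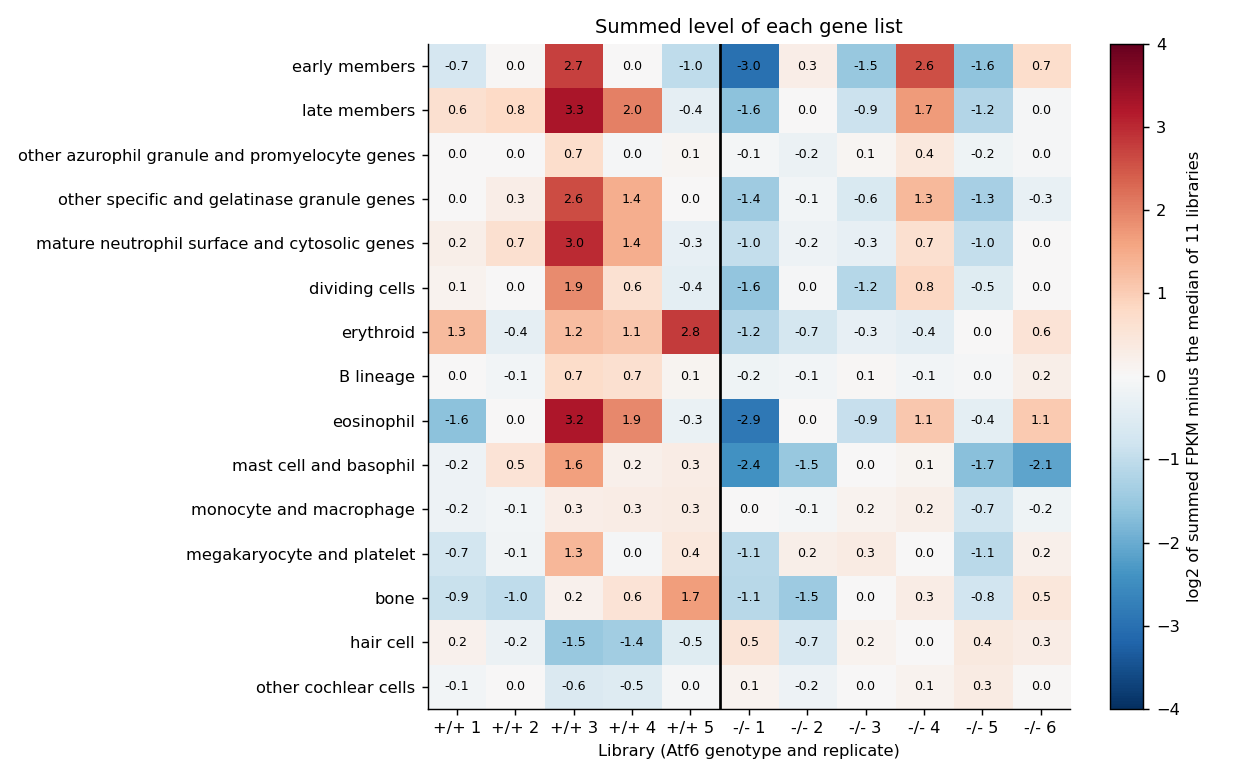
Summed FPKM of each gene list in each library on a log2 scale, relative to the median of the 11 libraries, with *Atf6*+/+ libraries left of the black line and *Atf6*-/- libraries right of it. Granule, mature neutrophil and eosinophil lists are highest in *Atf6*+/+ replicate 3, and so are the dividing cell, B lineage, mast cell and basophil, and megakaryocyte and platelet lists. The erythroid sum, mostly haemoglobin, is highest in *Atf6*+/+ replicate 5 (21652 FPKM).

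Single libraries set how many late genes were below the unadjusted p. Without *Atf6*+/+ replicate 3 or without *Atf6*+/+ replicate 4 (the library with the lowest *Kcne1* and *Kcnq1*), only 1 late gene was (*Retnlg*), where 4.2% and 4.78% of all genes tested were lower at that p. Without *Atf6*+/+ replicate 5 or *Atf6*-/- replicate 4 all 7 were (6.01% and 5.68% of all genes). Without *Atf6*-/- replicate 1 or 5 there were 2 (4.64% and 3.82%), and without *Atf6*-/- replicate 2, 3 or 6 there were 3 (5.76%, 6.01% and 4.15%). Without *Atf6*+/+ replicate 1 or 2 there were 5 and 6 (6.14% and 6.04%). *Retnlg* was at an unadjusted p of at most 0.05 in all 11 of these fits (log2 fold change -2.32 to -1.37, limma adjusted p 0.297 to 0.639), and *S100a8* in 9. The direction of the early genes turned without *Atf6*+/+ replicate 3 (*Mpo* 0.06 and *Elane* 0.16) and, for *Mpo*, without *Atf6*-/- replicate 1 (0.03). Without both *Atf6*+/+ replicate 3 and *Atf6*-/- replicate 4, all 7 late genes were at that limit (4.69% of all genes), and the medians were -0.56 for the early and -1.46 for the late genes. The early genes averaged above the late genes in every fit that was run, by 0.67 to 1.2 on the log2 scale with 1 library left out.

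**Figure D5:**
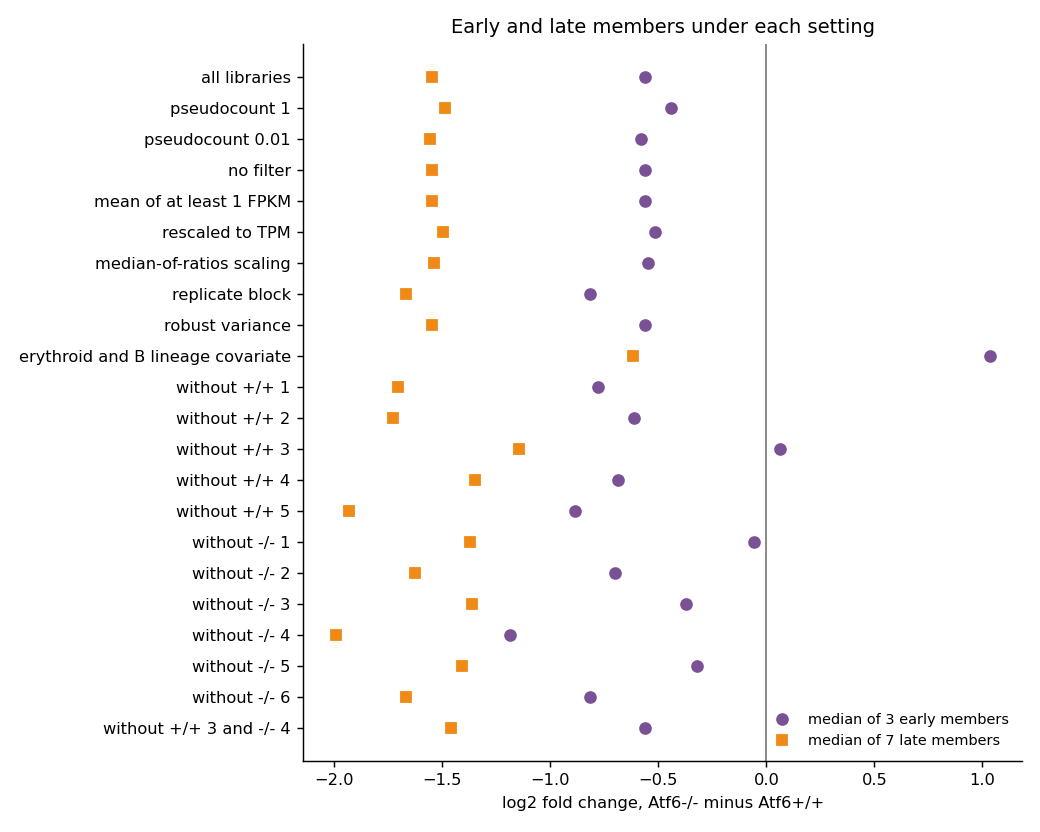
Median log2 fold change of the 3 early genes (purple circles) and the 7 late genes (orange squares) in the fit of all libraries and in each alternative. The late median is negative throughout and the early median lies to its right throughout, but the early median crosses 0 without *Atf6*+/+ replicate 3 (0.06) and with the erythroid and B lineage covariate (1.03).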

How the data were processed

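RNA from 5 *Atf6*+/+ and 6 *Atf6*-/- cochleae of mice aged 2 months was sequenced as stranded mRNA libraries on the DNBSEQ platform. The authors used HISAT2 2.0.4 with the GRCm39 assembly and deposited FPKM values with 2 decimals, which RSEM computed (release 1.2.12 in the submitters' processing notes, a later one in the methods). They tested differential expression with DESeq2 1.4.5, whose results were not used here. Without read counts, the depth of each library is unknown.

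Values of 18667 genes were joined by NCBI gene identifier and transformed to log2(FPKM + 0.1). The 16169 genes that averaged 0.1 FPKM or more were fitted in limma 3.58.1 under R 4.3.3. The variance prior followed a trend with the mean level, genotype was the only term, and p-values were adjusted over all of these genes by the Benjamini-Hochberg method. The unadjusted limit was a p of at most 0.05 and a log2 fold change whose size was above 0.05. For single members, a two-sided exact permutation test over 462 assignments was added. Scores over members and lists were not tested. The list of NADPH oxidase subunits is not reported here as a list.

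The members and 18 other gene lists were chosen with earlier results of these data known. Genes are named as members, as genes of a list where that list is described, as *Atf6*, or as the 5 genes of at least 1 FPKM most correlated with the early or late mean profile after removal of the genotype means. Alternatives were pseudocounts of 1 and 0.01 FPKM, no filter, a filter at 1 FPKM, median-of-ratios scaling, rescaling to TPM, a replicate block, robust variance, an erythroid and B lineage covariate and leaving out each library. Removal of *Atf6*+/+ replicate 3 and *Atf6*-/- replicate 4 together was chosen after seeing the data. Promoters were taken from a RefSeq table of GRCm38.p6, from which the 250 bases before each start were searched. The other steps ran in Python 3.11.15 (pandas 2.3.3, scipy 1.17.1, numpy 2.4.6, matplotlib 3.10.9).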

Additional observations from a re-analysis of the deposited data

Results flagged for a closer look

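In 26 sets of values (the 10 members, the early and late mean levels and the early minus late difference, in each genotype), 14 had a highest or lowest library whose gap to the nearest other library was large for the range of its group. Chance alone flags about 1 in 20 such sets where values are normally distributed. The members were entered as FPKM without a logarithm, where high values stand apart more readily, and the sets share their libraries. That rate therefore cannot be applied to these 14. Of the items on the log2 scale, only the early mean level of *Atf6*+/+ replicate 3 was flagged. All 14 were high values, 5 of them in *Atf6*+/+ replicate 3 and 9 in *Atf6*-/- replicate 4.

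In *Atf6*+/+ replicate 3, *Mpo* was at 88.7 FPKM (next library 13.4 FPKM), *Elane* at 92.0 FPKM (15.2 FPKM), *Prtn3* at 55.2 FPKM (11.4 FPKM) and *S100a8* at 873.9 FPKM (301.1 FPKM). The mean log2 level of the early genes in this library was 6.26, and 3.62 in the next.

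In *Atf6*-/- replicate 4, *Mpo* was at 92.9 FPKM (next library 25.5 FPKM), *Elane* at 81.8 FPKM (21.7 FPKM) and *Prtn3* at 37.6 FPKM (10.5 FPKM). *S100a8* was at 229.3 FPKM (74.7 FPKM), *S100a9* at 309.0 FPKM (104.4 FPKM), *Ngp* at 315.6 FPKM (85.7 FPKM), *Camp* at 120.9 FPKM (31.8 FPKM), *Ltf* at 39.7 FPKM (12.8 FPKM) and *Lcn2* at 104.8 FPKM (35.5 FPKM). *Retnlg* was the only member that did not stand apart in either library.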

How the results depend on the processing

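No member had an adjusted p under 0.05 (limma) in any of 22 fits. In the fit reported, 5 were lower at an unadjusted p of at most 0.05 (limma), as 5.37% of all genes tested were. The pseudocounts, filters and scalings left that count at 5, with 2.72% to 5.38% of all genes lower. Robust variance gave 3 late genes (5.26% of all genes) and the erythroid and B lineage covariate 0 (3.86%). Leaving out 1 library gave 1 to 7 (3.82% to 6.14%). The covariate turned *Mpo* (1.10), *Elane* (1.03) and *Prtn3* (0.41), with limma unadjusted p of 0.290, 0.304 and 0.655. The genes at the unadjusted p went from 1592 to 941. Leaving out 1 library gave log2 fold changes of -1.19 to 0.065 for *Mpo* and -1.09 to 0.16 for *Elane*, and a late median of -1.99 to -1.14. The list of recruiting signals had a median of -0.23 with a pseudocount of 1 and -0.17 with no filter, and the mast cell list one of -0.34 with a pseudocount of 1. That pseudocount also gave -0.29 for the B lineage, -0.43 for dividing cells, -0.51 for eosinophils and -0.24 for megakaryocytes, and 0.01 gave -1.51 for the mast cell list. With the covariate, the lists used to build it had medians of -0.11 (erythroid) and 0.094 (B lineage), by construction, and dividing cells and eosinophils 0.11 and 0.70. It also gave 0.24 for the other azurophil, -0.43 for the other specific granule and -0.63 for the mature list, and 0.20 for the megakaryocyte, -0.089 for the hair cell and 0.067 for the other cochlear cell list. The bone and transcription factor lists had medians of -0.021 and -0.092 with it. The cause of the other changes was not tested. Rescaling to TPM moved the split of genes at the unadjusted p from 868 lower and 724 higher to 439 and 1389, and the replicate block gave 658 and 420.

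Replicate numbers do not pair the libraries: same-numbered libraries correlated in their deviations by 0.095, -0.122, -0.211, 0.119 and -0.040 for numbers 1 to 5. The replicate block, which leaves out *Atf6*-/- replicate 6, put 7 late genes at the unadjusted p (4.07% of all genes were lower), with medians of -0.82 (early) and -1.67 (late). The depth is unknown, so no counting error can be given for low genes.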
